A study of Mus musculus with 8 samples.

Results

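The genes described here encode 37 proteins that hepatocytes secrete into plasma, and they are 37 of the 55536 genes counted in the series. They were chosen by gene symbol from a list of carriers, apolipoproteins, coagulation factors, protease inhibitors and fetuins headed by Alb and Ttr, and each symbol was joined to the counts by its Ensembl identifier. All 37 were found and all 37 passed the filter on low counts, the lowest count being 85 reads for F9 in Control replicate 5. RNA was sequenced from 8 tumors grown in male C3H mice whose livers had received HCA-1 cells, a mouse hepatocellular carcinoma (HCC) line. On day 17, mice of the IMQNP group were given a single i.v. dose of 4 mg/kg PFSUV-IMQ, which is the TLR7 agonist imiquimod carried in small phospholipid-free vesicles, and mice of the Control group were given saline. Tumors were taken 3 h later. Each group has 4 tumors, numbered 1, 3, 4 and 5 in Control and 1, 2, 3 and 4 in IMQNP. The labels give the age of the mice as 6 to 8 weeks and the methods as 4 to 6 weeks. All tumors thus share the cell line, the host strain and the implantation into the liver, so that they grew within host tissue that makes these same proteins. The sources name the samples as tumors of treated and control mice but do not say for each sample that it came from its own animal, so the p-values measure the spread between these 8 samples.

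Hepatocytes make most of the protein of plasma. Their secretory genes are driven by liver-enriched transcription factors and are transcribed at very high rates, with albumin foremost. During an acute phase response the mouse liver raises fibrinogen, hemopexin and serum amyloid A and lowers other plasma proteins, and liver tumor cells retain these genes to varying degrees. In bulk tumor RNA, fewer hepatocytes and less RNA per hepatocyte cannot be told apart, and neither can RNA of the HCA-1 cells and RNA of adjoining host liver.

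The upstream sequence of 31 of the 37 genes was read from the RefSeq promoter table for the mouse build GRCm38.p6, over 250 bases before each start. Promoters of Plg, Kng1, Apoc3, Apoc1, Ttr and Trf were not read. Entries on chromosome 18, where Ttr lies, were left out for the members but kept for the genes set beside them. Letters of a STAT site, TTCNNNGAA, occurred on either strand in 9.68% of these promoters against 8.13% of 27025 genes, and CTGGGA, the core of the IL-6 response element, occurred in 32.3% against 29.8%. CTGGGA was found before all 3 fibrinogen genes and before Apoa1, F10, F9, Fetub, Gc, Itih1 and Serpind1. TTCNNNGAA was found before Fga, Fgb and F9. These matches are descriptions of letters and were not tested as binding sites. The promoters of the near-identical paralogs are shown where those genes are described.

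The 37 genes took between 0.973 and 7.06% of all counts in a tumor. Their share was 2.56%, 2.82%, 7.06% and 0.973% in Control replicates 1, 3, 4 and 5, and 1.53%, 6.72%, 2.27% and 2.16% in IMQNP replicates 1 to 4. Control replicate 4 and IMQNP replicate 2 stood far above the other 6 tumors and Control replicate 5 was the lowest, so the groups overlapped over their whole range. The mean share was 3.35% ± 2.60 (SD, n = 4) in Control and 3.17% ± 2.39 (SD, n = 4) in IMQNP. Without the tumor with the highest share in each group, the means were 2.12% and 1.99%. Each share rests on 164254 to 1588429 member counts among 16883911 to 27687756 counts per tumor, and its 95% Wilson interval reached at most 0.0119 percentage points to either side, which covers counting error only. Leaving Alb out gave shares between 0.652 and 4.81%. The plot of shares by tumor splits them into the 5 role groups.

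**Figure D1:**
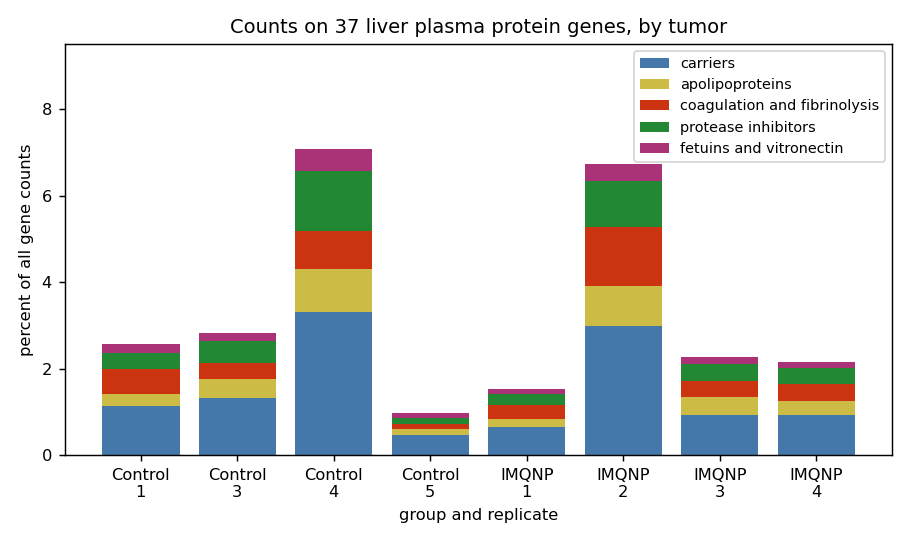
Percent of all gene counts in each of the 8 tumors that fell on the 37 liver plasma protein genes, stacked by role group, with Control tumors on the left and IMQNP tumors on the right. The bars of Control replicate 4 and IMQNP replicate 2 reach 7.06 and 6.72%, while the other 6 lie between 0.973 and 2.82%.

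The highest and the lowest tumor were nearly the same for every member, while the tumors between them changed places. Control replicate 4 and IMQNP replicate 2 were the 2 highest tumors for 36 of the 37 genes, against 14.0% of the 15998 genes tested, and Control replicate 5 was the lowest for 35 of them, against 20.3% of all genes. Control replicate 3, above the other tumors in between for Alb with 9027 CPM, lay under all tumors but Control replicate 5 for Fga, Fgb, Fgg and Hpx. Mug2 was the exception among the high tumors, and Mug2 and Trf had their lowest value in IMQNP replicate 1. The SD of log2 CPM (counts per 1000000, normalized with TMM factors) over the 8 tumors had a median of 1.13 for the members and 0.39 for all genes tested. The highest tumor exceeded the lowest by 4.62-fold for Ahsg to 24.9-fold for Mug2, with a median of 10.0-fold.

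**Figure D2:**
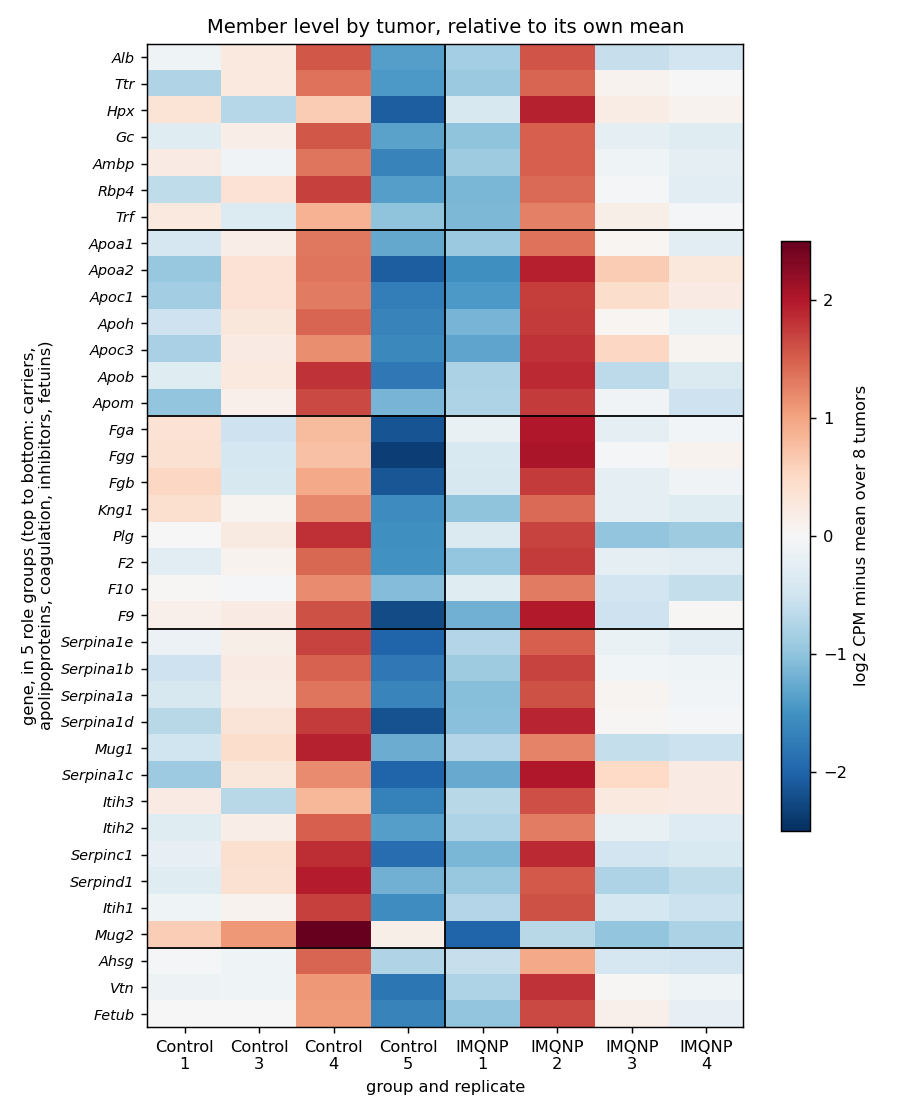
Level of each of the 37 genes (rows, in 5 role groups) in each of the 8 tumors (columns), as log2 CPM minus the mean of that gene over all tumors, with a vertical line between Control and IMQNP. Control replicate 4 and IMQNP replicate 2 are the 2 highest columns in 36 of 37 rows, and Mug2 departs from the pattern.

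Intracellular hepatocyte genes, which play no part in the choice of members, had the same high and low tumors. The geometric mean CPM of 30 such genes, among them the urea cycle enzymes Cps1, Otc and Arg1 and the cytochrome Cyp2e1, was 51.5, 111, 283 and 19.6 in Control replicates 1, 3, 4 and 5, and 38.2, 262, 68.5 and 71.7 in IMQNP replicates 1 to 4. For 28 of these 30 genes the 2 highest tumors were again Control replicate 4 and IMQNP replicate 2. Expressed relative to this mean, the range of all 37 members narrowed, and the highest tumor exceeded the lowest by 1.31-fold for Serpina1d to 23.8-fold for Mug2, with a median of 2.37-fold. The cholangiocyte list, 7 genes that include Krt19 and Spp1, summed to 2055 and 3153 CPM in Control replicate 4 and IMQNP replicate 2 and to between 6092 and 8060 CPM in the other 6 tumors. Its part in the levels of the members was not tested. Markers of liver endothelium summed to 297.7 to 415 CPM in Control and 315 to 401 CPM in IMQNP, a sum in which Bmp2, at 88.3 to 297.7 CPM, is the largest term. Of the 8 endothelial markers, 3 had Control replicate 4 and IMQNP replicate 2 as their 2 highest tumors, namely Stab2, Clec4g and Lyve1. Clec4g had 14.3 and 11.2 CPM there and Lyve1 26.4 and 33.5 CPM, against at most 8.08 and 17.7 CPM in the other 6 tumors. The rest of the list did not share this order, and Pecam1 was highest in Control replicate 5, at 43.1 CPM. Their part in the levels of the members was not tested either. The oncofetal list, of which 4 of 7 genes passed the filter on low counts, summed to 8.17 to 13.2 CPM in all, and its gene Afp, the fetal counterpart of albumin and a marker of many liver tumors, lay between 2.10 and 6.08 CPM.

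Per kilobase of exon, albumin was the most abundant member in each of the 8 tumors, with 4428 ± 3604 CPM per kb (SD, n = 4) in Control. Apoa1, the main protein of high density lipoprotein, followed with 1743 ± 1337, then Serpina1e, an alpha-1 antitrypsin, with 1439 ± 1349, Apoa2 with 1026 ± 918, Ttr, the thyroxine and retinol-binding protein carrier transthyretin, with 907 ± 758, Hpx with 830.0 ± 540.2 and Ahsg with 779 ± 579.8. The SDs of neighbours in this order overlap, but they arise from the tumor-wide shifts above, and within tumors the order was firmer. Apoa1 ranked the second or the third in every tumor and Serpina1e between 3 and 5, whereas Apoa2, Ttr, Hpx and Ahsg exchanged places between ranks 2 and 11. The lowest members were Mug2 with 13.7 ± 11.7 and the coagulation factor F9 with 10.8 ± 9.30 CPM per kb, and these held ranks 36 and 37 in every tumor.

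Across all genes, 362 were called higher in IMQNP (2.26% of 15998) and 32 lower (0.200%) by edgeR's quasi-likelihood test, where calls required a Benjamini-Hochberg adjusted p under 0.05 together with a log2 fold change above 1 or under -1. Among the 37 members, 0 were called higher and 1, Mug2, was called lower. At an unadjusted p under 0.05 there were 2078 of all genes and again 1 member, and DESeq2 likewise called Mug2 and no other member, against 3.12% of genes higher and 0.670% lower. The log2 fold change of the other 36 members lay between -0.54 and 0.88, with adjusted p from 0.665 up. Their SEs were large, the SE over all 37 running from 0.52 to 0.82. Positive values were seen for 22 members and negative values for 15, with a median log2 fold change of 0.16 beside -0.03 for all genes tested. This median turned on single tumors, being -0.72 without IMQNP replicate 2 and 0.88 without Control replicate 4, and it was 0.03 without both. Scaling by total counts put it at -0.05, with 15 members positive and 22 negative.

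Carriers bind and transport hydrophobic or toxic cargo. Albumin held 7075, 9027, 22446 and 2938 CPM in Control replicates 1, 3, 4 and 5, and 4259, 22736, 5131 and 5479 CPM in IMQNP replicates 1 to 4. The groups overlapped, and the log2 fold change was -0.14 (SE 0.71, adjusted p = 0.964 by edgeR). Ttr, whose gene lies on another chromosome, gave 544, 1084, 2339 and 338 CPM in Control and 484, 2527, 974 and 912 CPM in IMQNP. It showed the same high and low tumors as albumin and a log2 fold change of 0.19 (SE 0.65, adjusted p = 0.952). Hpx, hemopexin, which clears free heme and is an acute phase protein, was the carrier with the largest fold change, at 1717, 832, 2101 and 328 CPM in Control and 1028, 5127, 1549 and 1449.6 CPM in IMQNP. Its log2 fold change of 0.88 (SE 0.64) had an adjusted p of 0.665, the groups overlapped, and the value was 0.092 without IMQNP replicate 2. The other 4 carriers, Trf (transferrin), Gc (vitamin D-binding protein), Rbp4 (retinol-binding protein) and Ambp (the precursor of alpha-1 microglobulin and bikunin), did not pass the test. Counts of Trf are uncertain, since 79.8% of the 50-base words of its longest transcript also occur in Gm20425, a readthrough gene on the same strand.

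Apolipoproteins form the protein shell of lipoprotein particles. Apoa1 was at 1346, 2024, 4505 and 742 CPM in Control replicates 1, 3, 4 and 5 and at 939, 4588, 1852 and 1497 CPM in IMQNP replicates 1 to 4. Its log2 fold change was 0.04 (SE 0.61, adjusted p = 0.989), and its sign was opposite when counts were scaled by upper quartile or by total. Apoa2, the second structural protein of high density lipoprotein, measured 252, 618, 1218 and 116 CPM in Control and 168, 1851, 751 and 577 CPM in IMQNP. It had the largest fold change of the 7 apolipoproteins, 0.60 on the log2 scale (SE 0.79, adjusted p = 0.836). Relative to Apoa1, Apoa2 stood at 18.7, 30.6, 27.0 and 15.6 CPM per 100 CPM in Control and 17.9, 40.3, 40.5 and 38.5 in IMQNP. IMQNP replicate 1 therefore lay among the Control tumors, while the other 3 IMQNP tumors lay above them. Apob, the scaffold of very low density lipoprotein, Apoc1 and Apoc3, which slow the clearance of triglyceride, Apoh and Apom did not pass the test either, with log2 fold changes between -0.03 and 0.57.

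The coagulation and fibrinolysis group is led by the 3 fibrinogen chains, which are encoded side by side on chromosome 3 (GRCm38, Fgg at chr3:83007724-83015049, Fga at chr3:83026076-83033627 and Fgb at chr3:83040141-83049863). Fga gave 1784, 971, 2397 and 309 CPM in Control replicates 1, 3, 4 and 5 and 1226, 5573, 1179 and 1322 CPM in IMQNP replicates 1 to 4. Fgg gave 1236, 705, 1579 and 186 CPM in Control and 738, 3907, 924 and 1016 CPM in IMQNP. Neither pair of groups was separated, and the log2 fold changes were 0.77 for Fga (SE 0.69, adjusted p = 0.746) and 0.83 for Fgg (SE 0.70, adjusted p = 0.724). For Fgb the log2 fold change was 0.45 (SE 0.67, edgeR adjusted p = 0.863), also with overlapping groups. The proenzymes prothrombin (F2), F9, F10 and plasminogen (Plg), and kininogen (Kng1), the source of bradykinin, had log2 fold changes between -0.26 and 0.17. Counts of Plg and Kng1 are partly uncertain, since 13.8% of the words of Plg also occur in Slc22a3 and 17.9% of those of Kng1 in Kng2.

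Relative to albumin, the tumors fell out differently from their absolute levels. The 3 fibrinogen chains summed to 66.2 CPM per 100 CPM of Alb in Control replicate 1, and to 28.2, 27.7 and 25.9 in Control replicates 3, 4 and 5. In IMQNP replicates 1 to 4 the sum was 66.9, 58.9, 60.4 and 62.7. The 4 IMQNP tumors thus lay close together, with 3 Control tumors well under them and Control replicate 1 among them. Hpx followed the same division, with 24.3, 9.22, 9.36 and 11.1 CPM per 100 CPM of Alb in Control and 24.1, 22.5, 30.2 and 26.5 in IMQNP. Control replicate 1 also stood apart for the serum amyloid gene Saa1, which is not a member, with 485 CPM against 26.7 to 86.6 CPM in the other Control tumors and 214 to 2723 CPM in IMQNP. Of the other acute phase genes listed, Saa2, Orm1, Orm2, Orm3, Lcn2 and Apcs also had their highest Control value in this tumor. Saa3, Saa4, Hp, Crp, Hamp, Itih4, Serpina3n, Serpina3m and C3 had theirs in another Control tumor. Within the fibrinogen complex, Fga was at 106 to 117 CPM per 100 CPM of Fgb in Control and 118 to 142 in IMQNP, and Fgg at 70.1 to 80.6 in Control and 83.5 to 99.9 in IMQNP, so that both ratios separated the groups. Albumin made up 28.8 to 33.0% of member counts in Control and 22.6 to 28.5% in IMQNP. These ratios were chosen after their values were seen and were not tested. How many of all genes separate the groups relative to Fgb was not counted. Of the 37 genes relative to Alb, Vtn was higher in each IMQNP tumor than in any Control tumor, as were 2.15% of all genes, and Mug2 was lower, as were 0.638%.

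**Figure D3:**
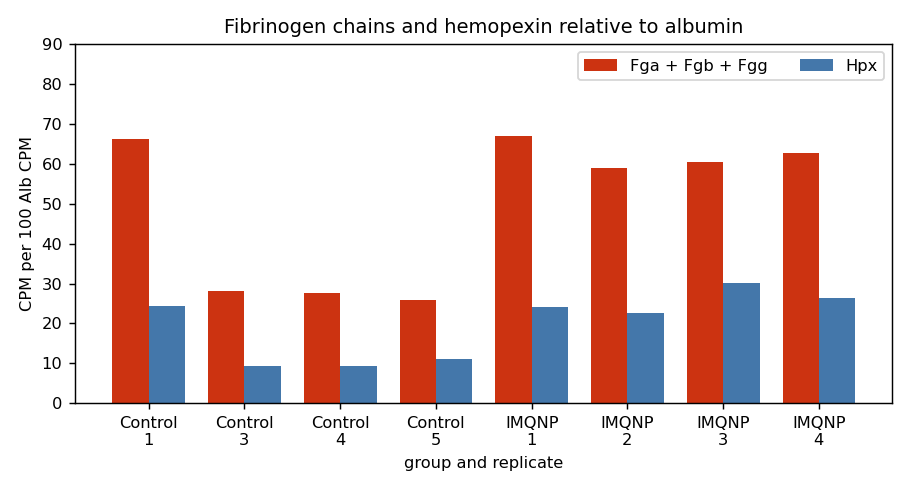
Summed CPM of the 3 fibrinogen chains and CPM of Hpx per 100 CPM of Alb in each tumor, with Control tumors on the left. The 4 IMQNP tumors lie at 58.9 to 66.9 for fibrinogen and 22.5 to 30.2 for Hpx, and Control replicate 1 lies with them at 66.2 and 24.3.

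The protease inhibitors include 5 alpha-1 antitrypsin genes, Serpina1a to Serpina1e, which arose by duplication in the mouse and lie together on chromosome 12. Alpha-1 antitrypsin inhibits neutrophil elastase. The paralogs are near copies, and between 35.6 and 79.3% of the 50-base words of each transcript occur elsewhere among transcripts, so the split of reads between them is uncertain. Their promoters are shown over the 96 bases that align without a gap, all on the minus strand, to make plain how alike they are. They are Serpina1a (chr12:103863625-103863720), Serpina1b (chr12:103738200-103738295), Serpina1c (chr12:103904962-103905057), Serpina1d (chr12:103773634-103773729) and Serpina1e (chr12:103956960-103957055). In Serpina1a the capitals mark a stretch of letters common to all 5, and in the other 4 they mark the bases that differ from Serpina1a, which number 3, 2, 6 and 2 of 96.
Serpina1a: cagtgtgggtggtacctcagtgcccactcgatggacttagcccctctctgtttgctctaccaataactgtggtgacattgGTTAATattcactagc
Serpina1b: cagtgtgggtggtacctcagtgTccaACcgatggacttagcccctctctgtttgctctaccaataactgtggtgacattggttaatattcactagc
Serpina1c: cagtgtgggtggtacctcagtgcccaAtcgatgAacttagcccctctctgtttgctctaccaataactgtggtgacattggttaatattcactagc
Serpina1d: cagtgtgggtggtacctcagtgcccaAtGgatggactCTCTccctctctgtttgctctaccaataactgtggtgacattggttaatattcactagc
Serpina1e: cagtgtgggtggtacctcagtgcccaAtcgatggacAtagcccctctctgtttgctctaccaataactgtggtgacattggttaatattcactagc

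Serpina1e carried 53.4 to 64.4% of the summed CPM of the 5 genes in every tumor. It gave 1533, 1887, 5464 and 426 CPM in Control replicates 1, 3, 4 and 5 and 1026, 4774, 1521 and 1426 CPM in IMQNP replicates 1 to 4, with a log2 fold change of -0.09 (SE 0.72, adjusted p = 0.978). Serpina1b, the next by level per kilobase, gave 359.6, 589, 1426 and 149 CPM in Control and 275, 1643, 489 and 475 CPM in IMQNP, with a log2 fold change of 0.19 (SE 0.71, adjusted p = 0.955). Control replicate 4 and IMQNP replicate 2 were the highest tumors for each of them. With the counts of all 5 summed, which sets the uncertain split aside, the log2 fold change was 0.06 (SE 0.73, adjusted p = 0.986). Serpinc1, antithrombin, and Serpind1, heparin cofactor II, inhibit thrombin, and Itih1, Itih2 and Itih3 are heavy chains of inter-alpha-trypsin inhibitor. None of these 5 passed the test, with log2 fold changes from -0.47 for Serpind1 to 0.63 for Itih3. Zbtb37 on the opposite strand shares 58.8% of the words of Serpinc1.

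The remaining inhibitors, Mug1 and Mug2, encode murinoglobulins, single-chain relatives of alpha-2 macroglobulin that trap proteases. On GRCm38 both lie on the plus strand of chromosome 6, Mug1 at chr6:121838541-121889057 and Mug2 at chr6:122006761-122085965, with the pseudogene Mug4-ps between them and Mug-ps1 beyond Mug2. Their promoters are shown because Mug2 alone among the members was called. The windows (chr6:121838326-121838540 and chr6:122006548-122006760, the latter ending 37 bases before the RefSeq start) differ in 26 of 222 aligned columns, an identity of 88.3%, and capitals mark the differing bases.
Mug1: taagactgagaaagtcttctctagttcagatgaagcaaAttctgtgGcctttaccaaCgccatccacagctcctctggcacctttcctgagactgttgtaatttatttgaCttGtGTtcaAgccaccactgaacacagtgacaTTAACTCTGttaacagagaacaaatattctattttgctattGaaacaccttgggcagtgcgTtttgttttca
Mug2: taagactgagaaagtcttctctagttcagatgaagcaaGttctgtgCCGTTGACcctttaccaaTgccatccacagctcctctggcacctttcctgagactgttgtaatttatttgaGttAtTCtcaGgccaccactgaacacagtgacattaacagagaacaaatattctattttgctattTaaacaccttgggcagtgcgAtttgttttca

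Mug2 was low in all IMQNP tumors. It measured 35.1, 48.2, 142 and 25.5 CPM in Control replicates 1, 3, 4 and 5, and 5.68, 14.3, 11.6 and 13.2 CPM in IMQNP replicates 1 to 4. The groups did not overlap, which held for this member only in the lower direction (3.28% of all genes did so) and for 0 members in the higher direction (6.00% of all genes). The mean was 62.6 ± 53.5 CPM (SD, n = 4) in Control and 11.2 ± 3.82 CPM (SD, n = 4) in IMQNP, and the log2 fold change was -2.49 (SE 0.55, adjusted p = 0.0466 by edgeR's quasi-likelihood test). Mug1, in contrast, measured 365, 703, 1963 and 220.3 CPM in Control and 311, 1223, 342 and 354 CPM in IMQNP. Control replicate 4 and IMQNP replicate 2 were again its highest tumors, and its log2 fold change of -0.54 (SE 0.70) had an adjusted p of 0.832.

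The call of Mug2 was close to the threshold. Leaving out each tumor in turn kept the direction in all 8 fits, with log2 fold changes from -2.75 to -1.70. The call held without Control replicate 4 or without Control replicate 5. It was lost in the other 6 fits, where the edgeR adjusted p was 0.0707 without Control replicate 1, 0.0925 without Control replicate 3, 0.0998 without IMQNP replicate 1, 0.0746 without IMQNP replicate 2, 0.122 without IMQNP replicate 3 and 0.113 without IMQNP replicate 4. It held without both Control replicate 4 and IMQNP replicate 2 (log2 fold change -1.86, adjusted p = 0.0383, where 1.74% of all genes were called higher and 0.187% lower), and the other 36 members then ranged from -0.57 to 0.58 with adjusted p from 0.661 up.

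Relative to its neighbour, Mug2 stood at 9.63, 6.86, 7.21 and 11.6 CPM per 100 CPM of Mug1 in Control replicates 1, 3, 4 and 5, and at 1.83, 1.16, 3.40 and 3.72 in IMQNP replicates 1 to 4. The ratio separated the groups, and IMQNP replicate 2, where hepatocyte genes were high, had the lowest ratio of all. This ratio was chosen after its values were seen and was not tested. How many of all genes separate the groups relative to Mug1 was not counted. Of the 50-base words of Mug2, 50.5% occur elsewhere, 37.1% in Mug-ps1 and 21.3% in Mug1, so its counts depend on how shared reads were assigned. Mug-ps1 was at 12.3, 25.2, 73.9 and 3.53 CPM in Control and at 1.32, 29.8, 7.64 and 8.93 CPM in IMQNP, with a log2 fold change of -1.27 (SE 0.96, adjusted p = 0.678). With the counts of Mug1 and Mug2 summed, the log2 fold change was -0.62 (SE 0.69, adjusted p = 0.799) and no member was called, since Mug1 supplies most of the reads.

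**Figure D4:**
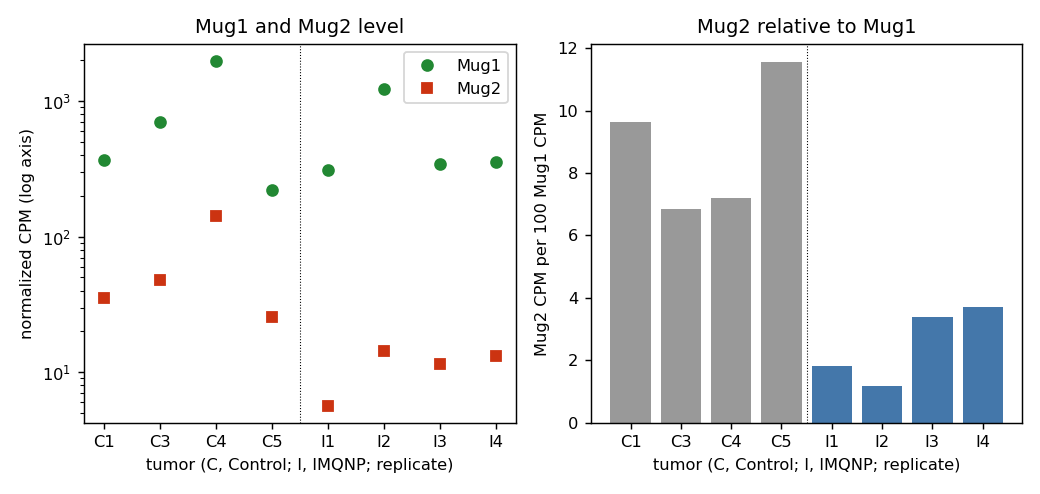
Left, normalized CPM of Mug1 (circles) and Mug2 (squares) on a log axis in the 4 Control (C) and 4 IMQNP (I) tumors. Right, Mug2 CPM per 100 CPM of Mug1 in the same tumors, which lies at 6.86 to 11.6 in Control and 1.16 to 3.72 in IMQNP.

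The last group holds the fetuins and vitronectin. Ahsg, fetuin-A, which binds calcium phosphate in plasma and falls in the acute phase, gave 1267, 1210.4, 3595 and 777 CPM in Control replicates 1, 3, 4 and 5 and 874, 2533, 978 and 938 CPM in IMQNP replicates 1 to 4. It was the member with the narrowest range over tumors, and its log2 fold change was -0.36 (SE 0.53, adjusted p = 0.855). Vtn, vitronectin, an adhesion protein of plasma and matrix, gave 435, 443, 1009.6 and 137 CPM in Control and 281, 1678, 489.8 and 446 CPM in IMQNP. It had the largest fold change of the group, 0.52 on the log2 scale (SE 0.66, adjusted p = 0.831), with overlapping groups. Fetub, fetuin-B, did not pass the test, with a log2 fold change of 0.34.

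Because hepatocyte genes as a whole differed so much between tumors of the same group, the comparison was also fitted with the mean log2 CPM of the 30 intracellular hepatocyte genes as a covariate, an alternative chosen after the data were seen. The median SE over the members went from 0.70 to 0.21, and 577 genes (3.61%) were called higher and 185 (1.16%) lower. Mug2 remained the only member called, with a log2 fold change of -2.31 (SE 0.25, adjusted p = 2.2e-04). The other 36 members lay between -0.54 and 0.63, with adjusted p from 0.117 up, and the median over all 37 was 0.01 beside -0.03 for all genes tested. At an unadjusted p under 0.05 there were 5 members, Mug2, Mug1 and Serpind1 with negative and Serpina1c and Apoa2 with positive fold changes, against 3233 of the 15998 genes. Divided by the geometric mean CPM of the hepatocyte genes, Mug2 was lower in every IMQNP tumor than in any Control tumor (0.838% of all genes were), and Serpina1d was higher (1.11% were). Mug-ps1, adjacent to Mug2, had a log2 fold change of -1.25 and an adjusted p of 0.0177 in this fit. The plot of fold changes sets both fits side by side.

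**Figure D5:**
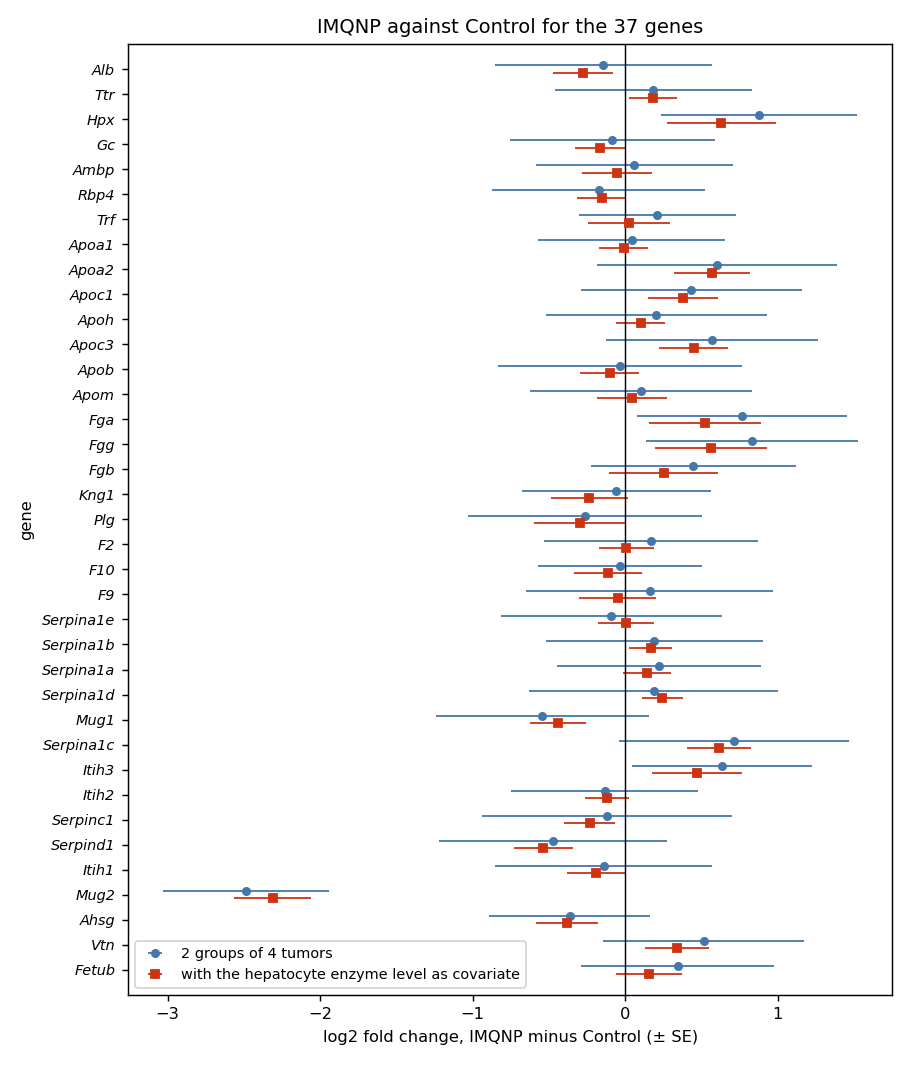
Log2 fold change of IMQNP minus Control for the 37 genes, with bars of ± SE, from edgeR fits without (circles) and with (squares) the hepatocyte enzyme level of each tumor as a covariate. Mug2, at -2.49 and -2.31, stands apart from the other 36 genes, which lie between -0.54 and 0.88.

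Other genes of hepatocyte function were read in the same way. Of 42 further plasma protein genes, 40 were tested and 0 were called by edgeR or DESeq2 in either direction, with 0 at an unadjusted p under 0.05 and a median log2 fold change of 0.09. The largest values were 1.30 for Serpina10 (adjusted p = 0.495), an inhibitor of coagulation factor X, and 1.02 for Lrg1 (adjusted p = 0.488). For all 40, Control replicate 4 and IMQNP replicate 2 were the highest tumors. Of the 30 intracellular hepatocyte genes 0 were called by edgeR (2 at an unadjusted p under 0.05) and 1, Cyp7a1, was called lower by DESeq2, and their median was -0.08. The largest values were -3.44 for Cyp7a1, the rate-limiting enzyme of bile acid synthesis (adjusted p = 0.0759), and 2.02 for Pck1, an enzyme of gluconeogenesis (adjusted p = 0.364). Cyp7a1 held 8.89, 18.9, 55.7 and 2.12 CPM in Control replicates 1, 3, 4 and 5 and 1.05, 2.31, 1.84 and 2.70 CPM in IMQNP replicates 1 to 4.

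Among 18 liver transcription factors 0 were called by edgeR, with 3 at an unadjusted p under 0.05 and a median log2 fold change of -0.27, while DESeq2 called Cebpb higher and Nr1i3 lower. Nr1i3, the nuclear receptor CAR, had -2.72 (adjusted p = 0.191) and Ppara, a regulator of fatty acid oxidation, -1.34 (adjusted p = 0.573). Nr1i3 ranged from 0.869 to 10.1 CPM in Control. It was near the floor at 0.221 CPM in IMQNP replicates 1 and 4, where 3 counts were 0.166 and 0.165 CPM. The 16 genes of the mouse acute phase, which were kept apart from the members, all had positive fold changes with a median of 1.33. Of the 15998 genes tested, 7361 had positive fold changes. Of these, 0 were called by edgeR, 6 had an unadjusted p under 0.05, and 3 (Saa3, Lcn2 and Serpina3n) were called higher by DESeq2. Their sum was 1390.4 to 6911 CPM in Control, and 3691, 22975, 6778 and 5717 CPM in IMQNP replicates 1 to 4. Apart from IMQNP replicate 2, the IMQNP sums thus lay within the Control range. Saa3 had the largest value, 5.76 on the log2 scale (SE 1.31, adjusted p = 0.0544), followed by Saa2 with 3.01 (adjusted p = 0.282). Saa3 held 3.32, 2.495, 2.36 and 21.7 CPM in Control replicates 1, 3, 4 and 5. In IMQNP replicates 1 to 4 it held 21.3, 1182, 230 and 181 CPM. Among 8 markers of Kupffer cells and macrophages, Vsig4, a complement receptor of resident macrophages, was called lower (log2 fold change -1.62, adjusted p = 0.0453), and the list summed to 309 to 527 CPM in Control and 169 to 351 CPM in IMQNP. The part of these cells in the levels of the members was not tested.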

How the data were processed

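RNA of 8 tumors was sequenced, and every test was run on the gene-level read counts deposited by the authors, which are not normalized. Per the labels the authors' tools were Trimmomatic 0.38, HISAT2 2.1.0 and featureCounts 2.0.0, whereas the methods name TopHat and HTSeq. The genome build is not given in the sources used here, but all 55536 identifiers are in GENCODE M21 (GRCm38). A second table holds a signal that the authors made by dividing counts by a size factor per tumor, 0.679 to 1.36 (largest relative departure 5.4e-10), and was used for symbols only.

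Counts were fitted in edgeR 4.0.16 (R 4.3.3) with TMM normalization, the default low-count filter and the quasi-likelihood test, IMQNP against Control, with Benjamini-Hochberg adjustment over 15998 genes. SEs were taken from the fold change and its F statistic. DESeq2 1.42.0 was an alternative, as were other scalings, filters and left-out tumors. Tables and figures were made in Python 3.11.15 with pandas 2.3.3, numpy 2.4.6, Biopython 1.88 and matplotlib 3.10.9. The fits were tested on simulated data. Shared words were counted over 50 bases of each gene's longest GENCODE M21 transcript. A floor of 3 counts was 0.105 to 0.210 CPM.

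The members and the gene lists were chosen with earlier results of these data known. Values in every tumor are given for Alb, Ttr, the called member, and in each role group the 2 members with the highest level per kilobase in Control and the member with the largest fold change. Mug1 and the other genes shown beside these were added for comparison after their values were seen, except that each further list is represented by its called genes or its 2 largest fold changes. The result for 1 further promoter motif is not reported here. No sequencing batch is given in the sources used here.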

Additional observations from a re-analysis of the deposited data

Results flagged for a closer look

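The quantities examined were 13, namely 12 of the genes with values in every tumor and the share of counts on all 37, each in both groups of 4. Mug1, the other genes added for comparison and the ratios between genes were not examined. IMQNP replicate 2 stood apart from the other IMQNP tumors in 9 of the 13, and no other tumor stood apart in them. The rule was Dixon's, a gap to the nearest tumor that takes more of the group's range than the 95% critical value for 4 tumors, which chance meets in about 1 in 20 groups, and these quantities move together. The values in IMQNP replicate 2 were 22736 CPM for Alb, 5573 CPM for Fga, 3907 CPM for Fgg, 5127 CPM for Hpx, 2533 CPM for Ahsg, 1643 CPM for Serpina1b, 4774 CPM for Serpina1e, 1678 CPM for Vtn, and 6.72% of counts for all 37 genes. Hepatocyte enzymes were high in the same tumor, at a geometric mean of 262 CPM.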

How the results depend on the processing

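Each member had at least 85 counts in every tumor, and the spread between tumors set the SEs. Mug2 was lower in every fit, and its call was absent from 6 of the 8 leave-one-out fits, as given above, and was not fitted apart when paralog counts were summed, where 0 members were called lower. Leaving out each tumor gave 0 to 1 members called lower, 197 to 375 genes called higher and 8 to 38 lower, 0 to 1 intracellular hepatocyte genes lower and 0 to 1 transcription factors higher. The median of the members ran from -0.72 to 0.88 and the mean shares from 2.12 to 4.15% in Control and 1.99 to 3.72% in IMQNP. Log2 fold changes ran from -0.89 to 0.29 for Ahsg, -1.08 to 0.56 for Alb, -0.60 to 0.69 for Apoa1, -0.16 to 1.34 for Apoa2, -0.15 to 1.18 for Fga, -0.071 to 1.21 for Fgg, 0.092 to 1.25 for Hpx, -1.29 to 0.37 for Mug1, -0.62 to 0.97 for Serpina1b, -0.83 to 0.77 for Serpina1e, -0.46 to 0.90 for Ttr and -0.33 to 1.09 for Vtn.

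Of all genes, 55 were called lower with total counts and 63 with no filter on low counts, and DESeq2 called 619 higher and 133 lower. With no filter, 1 intracellular hepatocyte gene was lower and 1 transcription factor higher; DESeq2 called 1 and 1, and 1 factor lower. Apoa1 turned to -0.034 with upper-quartile scaling, and to -0.14 with total counts, where Serpina1b turned to -0.0050. The hepatocyte covariate gave 577 genes higher and 185 lower, 3 enzymes higher and 1 lower among the genes that form the covariate, 1 factor higher and 2 lower, and turned Apoa1 to -0.0095 and Serpina1e to 0.0045. Without the 2 tumors of highest share, Serpina1e turned to 0.021. The causes of these changes were not tested.

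The numbers 1, 3 and 4 are shared by the groups. Deviations from the group mean had correlations of 0.29, -0.27 and -0.32 between same-numbered tumors. These 3 values cannot show whether the numbers pair the tumors, since tumors with different numbers were not compared. A fit with the replicate number as a block used the 6 tumors with shared numbers. It dropped Control replicate 5, the Control tumor with the lowest share of member counts, and IMQNP replicate 2, the IMQNP tumor with the highest. Control replicate 4, with the highest share of all, stayed in. Of 16212 genes this fit called 401 higher and 300 lower. It called 2 members lower, Mug2, and F9 at -1.22 (edgeR adjusted p = 0.0278). Also called were 6 other plasma proteins and 10 intracellular genes lower, and 1 transcription factor higher and 2 lower. All 37 members were then negative, with a median of -0.84, and values turned for Apoa1 (-0.76), Apoa2 (-0.48), Fga (-0.39), Fgg (-0.35), Hpx (-0.15), Serpina1b (-0.76), Ttr (-0.57) and Vtn (-0.57). How far the choice of tumors set these signs was not tested.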
